A study of Mus musculus with 6 samples.

Results

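The hypoxia response and glycolysis genes are 35 listed genes of oxygen sensing, its transcriptional targets and the glycolytic pathway, taken by gene name from a table of 56748 genes. All 35 were found, 34 by the listed symbol and Ca9 as Car9, the symbol that RefSeq pairs with it. They were read in infarcted brain cortex on day 3 of a photothrombotic stroke model, in which laser light on the left hemisphere follows an agent injected into a vein at 100 mg/kg, in 3 libraries from mice given PLEA nanoparticles and 3 from mice given saline. All mice were male, wild-type C57, and each received 100 µL of its treatment by tail vein 2 hours after the stroke; their age, the intravenous agent and the meaning of PLEA are not given in the labels. No tissue without a stroke was analysed here, so no value says how the infarct changed these genes, and no label says whether each library is a different mouse, so a p-value measures the spread between these libraries, which may be technical.

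Hypoxia-inducible factor (HIF) is a dimer of an oxygen-regulated alpha subunit, encoded by Hif1a or Epas1, and the constant partner encoded by Arnt. In normal oxygen the prolyl hydroxylases of the Egln genes mark the alpha subunit and the ubiquitin ligase subunit Vhl has it degraded, and at low oxygen it persists and binds the short DNA motifs ACGTG and GCGTG near its targets. Those targets include most enzymes of glycolysis, the route from glucose to pyruvate, together with glucose and lactate carriers, and in ischaemic brain this switch lets cells make ATP without oxygen. Control of the alpha subunit by oxygen acts largely on the protein, which RNA counts do not measure.

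The motif was looked up in RefSeq promoters (GRCm38.p6), 300 bases from 250 before to 50 after a start, which matched 31 of the 35 genes (not Epas1, Bnip3l, Ndrg1 and Slc2a3) through 43 promoters. ACGTG or GCGTG on either strand (CACGT or CACGC on the printed strand) was present in 34 of the 43 (79.1%), against 14380 of all 32851 promoters of the same length (43.8%). CpG-rich sequence holds these letters more often. Among promoters with at least 10 CpG the shares were 30 of 35 (85.7%) for the listed genes and 9773 of 14281 (68.4%) for all. The 250 bases upstream of 4 starts are shown 5′ to 3′ with matches in capitals, 3 from genes described below and that of Eno2, which held no match. The letters CACGTG read as ACGTG on both strands and counted as 2 matches.
P4ha2: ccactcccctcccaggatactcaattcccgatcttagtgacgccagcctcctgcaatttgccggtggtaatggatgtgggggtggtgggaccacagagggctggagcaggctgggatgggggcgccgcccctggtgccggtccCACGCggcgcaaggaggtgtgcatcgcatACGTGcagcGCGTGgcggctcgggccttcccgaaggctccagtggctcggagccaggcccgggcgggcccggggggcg
Bnip3: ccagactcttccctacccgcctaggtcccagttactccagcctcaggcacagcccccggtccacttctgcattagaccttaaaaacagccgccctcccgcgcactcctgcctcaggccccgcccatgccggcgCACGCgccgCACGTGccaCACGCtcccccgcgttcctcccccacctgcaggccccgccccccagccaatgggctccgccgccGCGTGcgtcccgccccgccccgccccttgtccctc
Ldha: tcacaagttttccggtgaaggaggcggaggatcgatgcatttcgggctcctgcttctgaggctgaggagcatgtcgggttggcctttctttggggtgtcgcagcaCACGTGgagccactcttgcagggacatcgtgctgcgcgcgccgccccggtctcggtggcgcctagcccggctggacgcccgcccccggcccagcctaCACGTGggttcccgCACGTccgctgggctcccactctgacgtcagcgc
Eno2: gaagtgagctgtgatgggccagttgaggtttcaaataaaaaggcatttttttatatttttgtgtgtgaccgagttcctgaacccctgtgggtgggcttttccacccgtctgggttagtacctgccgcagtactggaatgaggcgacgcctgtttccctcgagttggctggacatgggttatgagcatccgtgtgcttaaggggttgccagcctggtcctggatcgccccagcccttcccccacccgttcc
These lie at chr11:54100674-54100923, plus strand for P4ha2, chr7:138909507-138909756, minus strand for Bnip3, chr7:46845554-46845803, plus strand for Ldha and chr6:124769674-124769923, minus strand for Eno2. Bnip3 and this Ldha start held 5 matches each in the printed bases, and P4ha2 held 3. A match is a string of letters and not a measured binding site.

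The libraries held 16810448 to 17516434 counts each. Neuronal markers were abundant in every library, with 10 of 10 genes tested and summed levels of 7807 to 9532 counts scaled to a common library size (CPM) in PLEA and 8122 to 9395 CPM in saline. Some other marker lists had 1 library apart from the rest. Microglia and macrophage markers reached 914 CPM in saline replicate 1, against 151 to 466 CPM in the other libraries; striatal projection neuron markers were at 161 CPM in saline replicate 2, against 704 to 1685 CPM elsewhere; and neutrophil markers summed to 17.5 CPM in saline replicate 3, against 0.226 to 0.692 CPM elsewhere. Meningeal and fibroblast markers were at 48.0 to 69.2 CPM in PLEA and 110 to 158 CPM in saline. For 7 of these 8 genes (87.5%) every PLEA library lay below every saline library. The same held for 3 of 8 endothelial markers (37.5%) and for 5.54% of all genes tested. In bulk tissue, fewer cells of a type and less RNA per cell cannot be told apart. How much infarct, or tissue other than cortex, each library held was not measured.

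Per length, the listed genes spanned a range from the abundant glycolytic enzymes to transcripts near the limit of detection. Levels between genes are compared as TPM, which divides counts by gene length before scaling. The order of genes therefore depends on the deposited lengths. Ldhb, at 1570 bases, had 5409 counts in PLEA replicate 1, and Pkm, at 5001 bases, had 17764. Aldoa, aldolase A, ranked first at 1487 ± 185 TPM in PLEA and 1295 ± 231 TPM in saline (SD, n = 3 each). Ldhb, the heart-type lactate dehydrogenase subunit, ranked next at 837 ± 26.0 TPM in PLEA and 795 ± 96.0 TPM in saline, and then Pkm, pyruvate kinase, at 809 ± 56.0 TPM in PLEA and 762 ± 120 TPM in saline (SD, n = 3 each). Ldhb and Pkm did not differ beyond their spread. Eno2, Pgk1, Tpi1, Pgam1, Pfkm, Eno1 and Gpi1 followed with means over all libraries between 689 and 319 TPM. Epas1 averaged 134 TPM over the 6 libraries and Hif1a 71.6 TPM. Hk2, the inducible hexokinase, averaged 3.99 TPM against 177 TPM for Hk1, the main brain form, and Adm, Hk2, Slc16a3 and Car9 were each under 9 TPM in every library. Gapdh stood at 20.8 TPM, far below its neighbours in the pathway, and is taken up with its gene copies below. A further gene ID that the table also names Aldoa averaged 8.22 TPM and was kept apart.

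**Figure D1:**
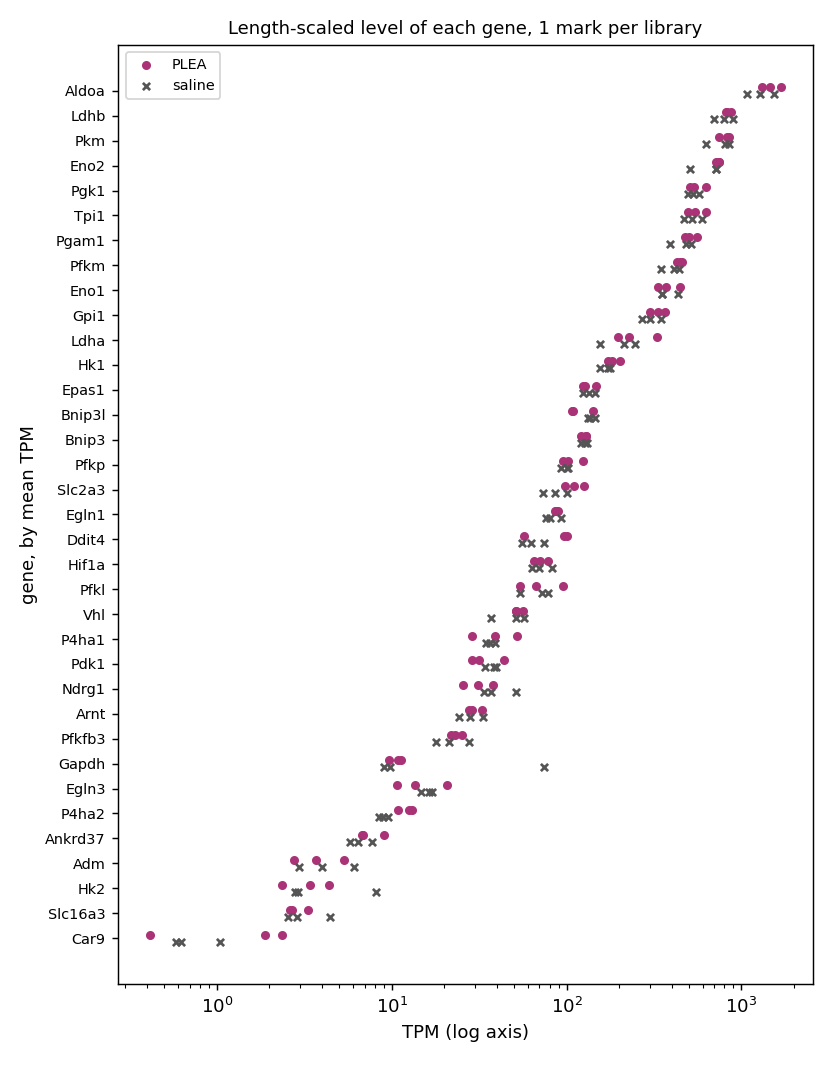
TPM (log axis) of the 35 genes in each library, ordered by mean, with PLEA libraries as circles and saline libraries as crosses. Aldoa is at the top and Car9 at the bottom, and the Gapdh mark of saline replicate 3 lies apart from the other 5.

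None of these genes differed between PLEA and saline past the threshold. Of the 35, 34 passed the filter on low counts, and edgeR's quasi-likelihood test, adjusted over all 17584 genes tested, called 0 higher and 0 lower, the same as over the whole table (0% called in each direction). DESeq2 and limma voom also called 0 of the 34, while over all 17584 genes tested DESeq2 called 39 and limma voom 0. At an unadjusted p under 0.05, 1 was higher (P4ha2), where 2.28% of all genes tested were, and 1 was lower (Ndrg1), where 3.58% were; both directions made 5.88% of the 34 against 5.86% of all. The CPM of the groups did not overlap for 2 genes, P4ha2 higher, as for 5.16% of all genes tested, and Bnip3l lower, as for 5.54%; both directions made 5.88% of the 34 against 10.7% of all. The count of 2 at an unadjusted p under 0.05 changed with the library left out, and so did the share over all genes tested. It was 6 of 35 (17.1%, against 9.19% of all genes tested) without PLEA replicate 1. Those 6 include Car9, which the filter kept out of the main fit and which was lowest in that library. The count was 1 of 35 (2.86%, against 6.87%) without saline replicate 2. It stayed at 2 of 35 (5.71%) without saline replicate 1 (5.91% of all) and without saline replicate 3 (8.2% of all). Without PLEA replicate 2 or PLEA replicate 3 it was 0 of 34, against 3.19% and 2.58% of all. DESeq2 gave 1 of 34 (2.94%, against 5.7%). The median log2 fold change was -0.018, with 14 positive and 20 negative values, against -0.0051 over all genes tested, and the median absolute value was 0.093 against 0.16. For 5 of the 34 genes (Ndrg1, P4ha2, Bnip3l, Slc2a3 and Bnip3) the difference in mean log2 CPM exceeded the SD within groups, or 14.7%, against 31.7% of the 17549 genes tested that had a count in every library.

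**Figure D2:**
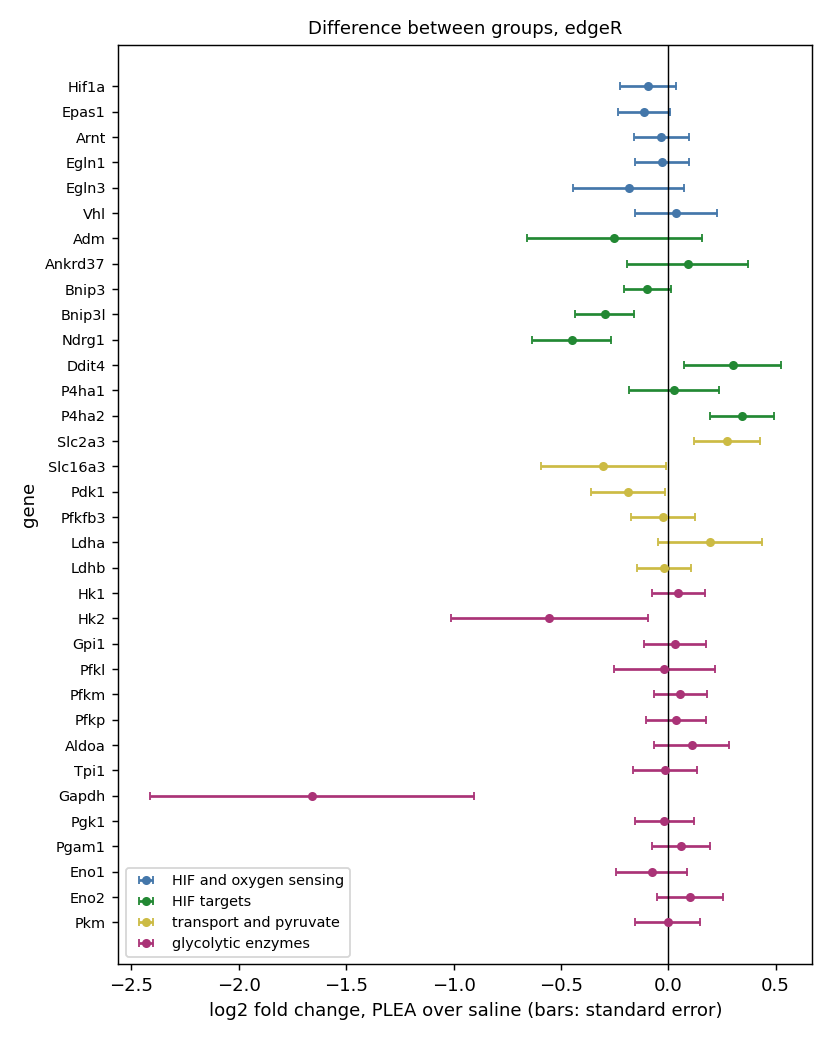
Log2 fold change of PLEA over saline (x axis) with its standard error for the 34 tested genes, coloured by role. Most points lie within 0.3 of zero; the widest bar belongs to Gapdh, at -1.66.

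The HIF subunits and oxygen sensors were close to level between the groups, with 5 of 6 fold changes negative and a median of -0.063. Hif1a was at 100, 111 and 89.4 CPM in PLEA, against 108, 118 and 96.4 CPM in saline (log2 fold change -0.095, SE 0.13, edgeR adjusted p = 0.907). Epas1, which encodes the alpha subunit HIF-2 and is prominent in endothelium and astrocytes, was at 169, 172 and 191 CPM in PLEA, against 212, 182 and 181 CPM in saline (log2 fold change -0.11, SE 0.12, edgeR adjusted p = 0.879). The groups overlapped for both. For Epas1, as for Egln1 and Vhl, the highest library was saline replicate 1. There endothelial markers (8 of 8 tested) summed to 324 CPM against 164 to 225 CPM in the others. Astrocyte, reactive astrocyte, microglia and macrophage, and meningeal markers were also highest in that library. The part of these lists in the Epas1 value was not tested. Within a library the length-scaled ratio of Epas1 to Hif1a was 1.78, 1.63 and 2.25 in PLEA, against 2.08, 1.63 and 1.98 in saline, a difference of -0.016 in mean log2 ratio.

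Among the sensors, Egln1, the main prolyl hydroxylase, was at 78.0, 74.2 and 72.3 CPM in PLEA, against 87.5, 66.4 and 75.2 CPM in saline. Egln3, the hydroxylase that HIF itself induces, was at 13.3, 6.91 and 8.39 CPM in PLEA, against 11.4, 9.42 and 11.7 CPM in saline (log2 fold change -0.18, SE 0.26, edgeR adjusted p = 0.908). PLEA replicate 1 was the highest library and PLEA replicates 2 and 3 the lowest for Egln3, so the spread lay within PLEA; without PLEA replicate 1 the fold change was -0.51, and without PLEA replicate 2 it was 0.0019. Vhl ranged from 35.9 to 40.9 CPM in PLEA and from 26.704 to 44.998 CPM in saline, and Arnt from 53.6 to 60.7 CPM in PLEA and from 50.3 to 64.2 CPM in saline.

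HIF targets outside glucose metabolism had fold changes of both signs, 4 positive and 4 negative among 8 tested genes. Their median absolute value was 0.27, against 0.16 over all genes tested. Of the 8, 2 (25%, Ndrg1 and P4ha2) had an unadjusted p under 0.05, against 5.86% of all genes tested. The groups did not overlap for 2 (25%, P4ha2 and Bnip3l), against 10.7% of all, and edgeR called 0 in each direction. P4ha2, a prolyl hydroxylase subunit that modifies collagen, was at 16.3, 19.0 and 18.9 CPM in PLEA, against 14.7, 12.8 and 15.3 CPM in saline. Every PLEA library lay above every saline library, with a log2 fold change of 0.34 (SE 0.15, edgeR adjusted p = 0.818). Its relative P4ha1 was at 51.6, 28.4 and 37.2 CPM in PLEA, against 42.0, 34.6 and 38.6 CPM in saline, so the PLEA libraries lay on both sides of saline. The length-scaled ratio of P4ha1 to P4ha2 was 4.80, 2.27 and 2.98 in PLEA, against 4.34, 4.10 and 3.83 in saline, with a mean log2 difference of -0.36. The P4ha1 fold change was 0.025 and turned to -0.24 without PLEA replicate 1.

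Ndrg1, a stress-response gene that is strongly expressed in oligodendrocytes, was at 60.4, 40.7 and 47.6 CPM in PLEA, against 58.4, 82.1 and 62.7 CPM in saline. PLEA replicates 2 and 3 were below all saline libraries, while PLEA replicate 1 was above saline replicate 1 (log2 fold change -0.45, SE 0.18, edgeR adjusted p = 0.818). The fold change was -0.29 without saline replicate 2 and -0.63 without PLEA replicate 1. Oligodendrocyte markers, with 8 of 8 tested and none at 0, summed to 4119, 3111 and 4046 CPM in PLEA, against 4207, 5873 and 3934 CPM in saline. The library with the most Ndrg1 and the one with the least were also those with the most and the least of that list. The list's part in the Ndrg1 difference was not tested.

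The mitophagy receptor genes Bnip3 and Bnip3l, whose products mark mitochondria for removal, had negative fold changes. Bnip3l was at 131, 101 and 97.5 CPM in PLEA, against 137, 136 and 132 CPM in saline (log2 fold change -0.30, SE 0.14, edgeR adjusted p = 0.818). PLEA replicate 1 lay just under the lowest saline library, by 131.47 against 131.53 CPM, and the other PLEA libraries well below; without PLEA replicate 1 the fold change was -0.46. Bnip3, whose upstream sequence is shown above, was at 70.4, 70.6 and 63.8 CPM in PLEA, against 78.3, 69.8 and 71.1 CPM in saline (log2 fold change -0.097, SE 0.11, edgeR adjusted p = 0.885). The ratio of Bnip3 to Bnip3l was 0.913, 1.20 and 1.11 in PLEA, against 0.970, 0.876 and 0.921 in saline, so the groups overlapped through PLEA replicate 1.

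Ddit4, an inhibitor of mTOR signalling that stress and glucocorticoids induce, was at 24.1, 42.6 and 39.2 CPM in PLEA, against 34.4, 26.5 and 25.1 CPM in saline. PLEA replicates 2 and 3 exceeded all saline libraries and PLEA replicate 1 was the lowest of all (log2 fold change 0.30, SE 0.23, edgeR adjusted p = 0.849). Without that library the fold change was 0.50 with an edgeR adjusted p of 0.516, and without PLEA replicate 2 it was 0.14. The remaining targets were scarce. Adm, the vasodilator peptide adrenomedullin, had 25, 19 and 36 counts in PLEA, against 44, 20 and 27 counts in saline, and Ankrd37 had 58, 44 and 44 counts in PLEA, against 44, 37 and 50 counts in saline. Car9, the membrane carbonic anhydrase that marks hypoxic tumours, was not tested in the main fit. It had 4, 23 and 18 counts in PLEA, against 6, 10 and 6 counts in saline, with PLEA replicate 1 the lowest library and the other PLEA libraries the highest.

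**Figure D3:**
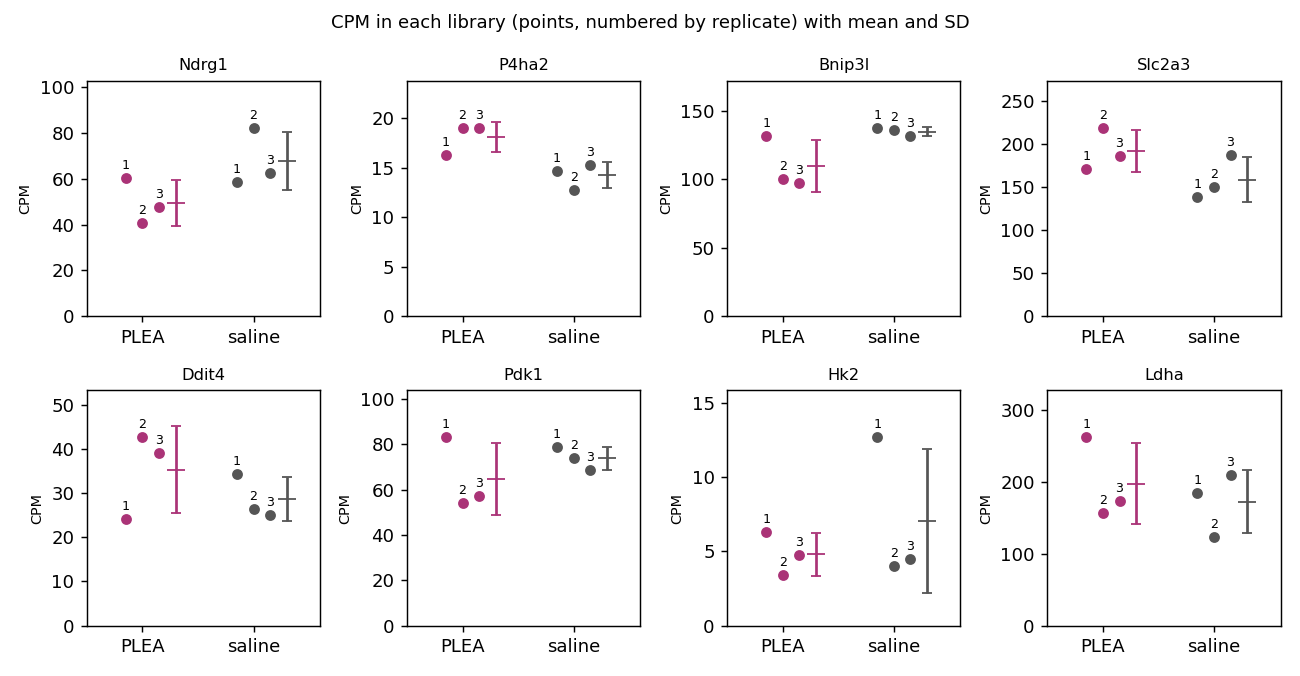
CPM of 8 genes in each library (points, numbered by replicate; y axes start at 0) with the group mean and SD beside them. PLEA replicate 1 lies apart from PLEA replicates 2 and 3 for Bnip3l, Ddit4, Pdk1 and Ldha, and saline replicate 1 has the highest Hk2.

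Glucose and lactate carriers and the enzymes around pyruvate showed no common direction, with 2 of 6 fold changes positive and a median of -0.021. Slc2a3, the neuronal glucose transporter, was at 171, 219 and 186 CPM in PLEA, against 139, 150 and 188 CPM in saline. The groups overlapped, since saline replicate 3 exceeded PLEA replicates 1 and 3 (log2 fold change 0.27, SE 0.15, edgeR adjusted p = 0.823). The fold change was 0.17 without PLEA replicate 2, and 0.19, 0.23 and 0.40 without saline replicates 1, 2 and 3 in turn. Its length-scaled ratio to Slc2a1, the glucose transporter of the blood-brain barrier and of glia, was 0.983, 0.919 and 0.877 in PLEA, against 0.664, 0.914 and 1.12 in saline. The PLEA ratios all lay inside the saline range. Pdk1, the kinase that shuts pyruvate out of mitochondria, was at 83.0, 54.3 and 57.1 CPM in PLEA, against 79.0, 73.8 and 68.8 CPM in saline, with PLEA libraries at both ends (log2 fold change -0.19, SE 0.17, edgeR adjusted p = 0.866). Without PLEA replicate 1 it was -0.42 (edgeR adjusted p = 0.499). Pfkfb3, which makes the activator of phosphofructokinase, ranged from 39.6 to 44.1 CPM in PLEA and from 35.1 to 50.4 CPM in saline.

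Ldha, the lactate dehydrogenase subunit that HIF induces, had one of the widest spreads between libraries. It was at 262, 157 and 174 CPM in PLEA, against 185, 124 and 210 CPM in saline, so that both groups spanned much of the same range (log2 fold change 0.19, SE 0.24, edgeR adjusted p = 0.898). Without PLEA replicate 1 the fold change turned to -0.071. Ldhb stayed between 311 and 316 CPM in PLEA and between 288 and 362 CPM in saline. The length-scaled ratio of Ldha to Ldhb was 0.398, 0.240 and 0.262 in PLEA, against 0.304, 0.196 and 0.276 in saline, a mean log2 difference of 0.20 with an SD of 0.39 in PLEA and 0.33 in saline.

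Hk2 and Slc16a3 shared a single high library. Hk2 was at 6.30, 3.40 and 4.75 CPM in PLEA, against 12.7, 4.05 and 4.49 CPM in saline (log2 fold change -0.55, SE 0.46, edgeR adjusted p = 0.857). Slc16a3, a lactate exporter, was at 3.47, 3.34 and 4.08 CPM in PLEA, against 6.22, 3.70 and 3.51 CPM in saline (log2 fold change -0.30, SE 0.29, edgeR adjusted p = 0.872). Saline replicate 1 was the highest library for both, and without it the fold changes turned to 0.18 and 0.019. That library also had the highest sums of microglia and macrophage markers, at 466, 151 and 290 CPM in PLEA, against 914, 270 and 348 CPM in saline, and of reactive astrocyte markers, at 863, 186 and 754 CPM in PLEA, against 2269, 541 and 505 CPM in saline. Of these lists 9 of 10 and 6 of 6 genes were tested and none was at 0; their part in the Hk2 and Slc16a3 values was not tested. The Slc16a3 span shares 1879 bases with the opposite-strand gene Csnk1d, which had 14014 counts over the 6 libraries, so without a known strand setting its few reads are uncertain. Spans are also shared by Aldoa with Tlcd3b, Pfkm with Senp1, Pfkp with Pitrm1 and Pkm with Gm49759. Among the scarce genes, Ankrd37 shares 6405 bases with the opposite-strand gene Lrp2bp (95 counts over the 6 libraries) and 57 with Ufsp2 (4650 counts). Car9 shares 1798 bases with the opposite-strand gene Gm12454 (56 counts), so the few reads of both are uncertain in the same way. The length-scaled ratio of Hk2 to Hk1 was 0.0217, 0.0137 and 0.0189 in PLEA, against 0.0523, 0.0163 and 0.0164 in saline, and that of Slc16a3 to the lactate carrier gene Slc16a1 was 0.0606, 0.105 and 0.0936 in PLEA, against 0.104, 0.0672 and 0.0765 in saline.

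The glycolytic enzymes tended to be high or low in the same libraries, on both sides of the comparison. Of the 14, 7 fold changes were positive and 7 negative, with a median of 0.014. PLEA replicate 1 was the highest library for 6 of them, saline replicate 3 for 7 and saline replicate 1 for 1 (Hk2), while saline replicate 1 was the lowest for 7 and PLEA replicate 2 for 5. Aldoa shows the pattern at 1186, 925 and 986 CPM in PLEA, against 818, 902 and 1153 CPM in saline. Eno1, the enolase of most tissues, was at 582, 431 and 460 CPM in PLEA, against 496, 455 and 603 CPM in saline. Pfkl, the liver-type phosphofructokinase, was the most variable of the abundant enzymes at 155, 87.0 and 103 CPM in PLEA, against 127, 87.7 and 134 CPM in saline. The groups overlapped for all 14 enzymes. The median over the enzymes changed sign with single libraries, at -0.083 with 11 negative values without PLEA replicate 1 and at 0.088 with 13 positive values without saline replicate 3. It was -0.017 without saline replicate 1 and 0.081 without PLEA replicate 2.

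**Figure D4:**
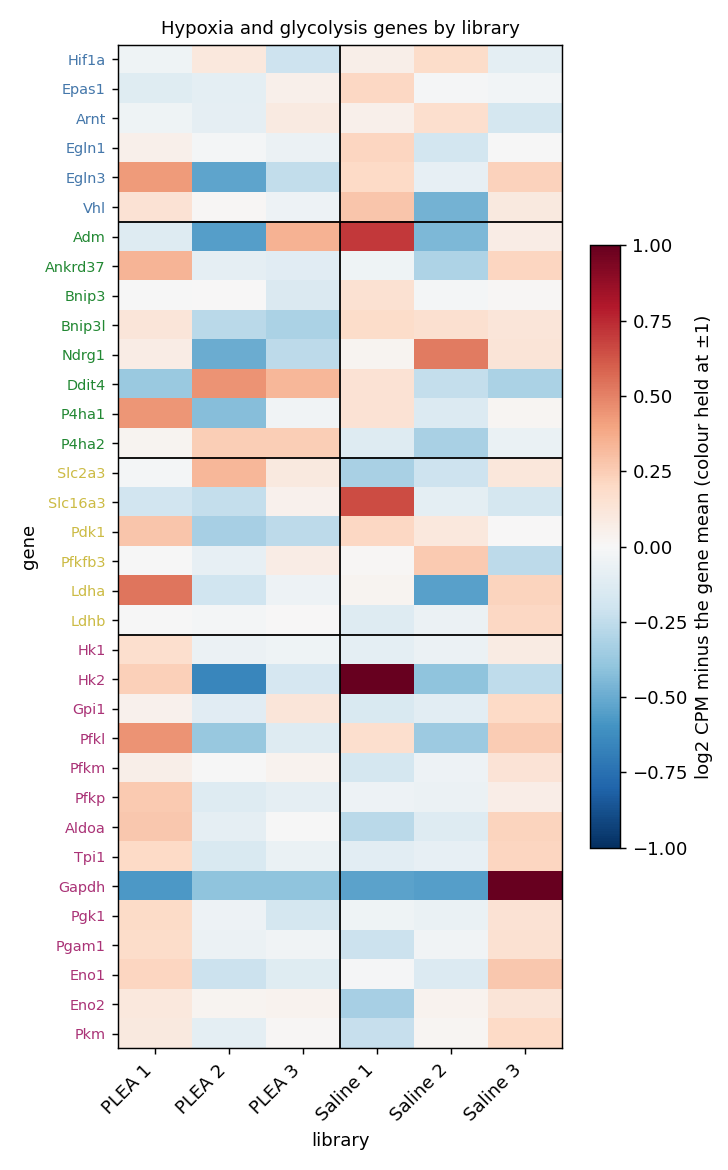
Log2 CPM minus the gene's mean over the 6 libraries (colour) for the 34 tested genes (rows, grouped by role) in each library (columns, PLEA left of the line and saline right). The glycolytic enzymes at the bottom are mostly red in PLEA replicate 1 and saline replicate 3, and Hk2 in saline replicate 1 and Gapdh in saline replicate 3 are the darkest cells.

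Summed over the 14 enzymes, the level was 6759, 5675 and 6150 TPM in PLEA, against 4863, 5735 and 6430 TPM in saline. The means of 6195 ± 543 TPM in PLEA and 5676 ± 785 TPM in saline (SD, n = 3 each) differed by less than the SD within saline (two-sided exact permutation p = 0.5; groups of 3 cannot give less than 0.1). The log2 ratio of the means was 0.13, and it was 0.026 without saline replicate 1 and 0.23 without saline replicate 3. Neuronal markers summed to 9532, 8212 and 7807 CPM in PLEA, against 8122, 9054 and 9395 CPM in saline. They were likewise highest in PLEA replicate 1 and second highest in saline replicate 3. The lowest library differed, being PLEA replicate 3 for the markers and saline replicate 1 for the enzymes. The part of neuronal markers in the enzyme levels was not tested. Eno2, the neuronal enolase, was at 849, 808 and 811 CPM in PLEA, against 627, 808 and 866 CPM in saline. The length-scaled ratio of Eno1 to Eno2 was 0.599, 0.467 and 0.496 in PLEA, against 0.693, 0.493 and 0.609 in saline. Pfkp, the platelet-type form that is abundant in brain, was at 405, 309 and 318 CPM in PLEA, against 327, 325 and 354 CPM in saline, and the muscle-type Pfkm at 360, 344 and 354 CPM in PLEA, against 305, 334 and 379 CPM in saline. The ratio of Pfkp to Pfkm was 0.280, 0.224 and 0.224 in PLEA, against 0.267, 0.243 and 0.233 in saline. Its level rests on the deposited lengths, 13401 bases for Pfkp and 3340 for Pfkm. Their counts were close, at 7002 and 6227 in PLEA replicate 1.

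The groups also overlapped for the other enzymes. Hk1 ranged from 355 to 415 CPM in PLEA and from 346 to 392 CPM in saline, and Gpi1, which converts glucose to fructose phosphate, from 467 to 549 CPM in PLEA and from 455 to 578 CPM in saline. Tpi1 ranged from 329 to 419 CPM in PLEA and from 339 to 424 CPM in saline, Pgk1 from 265 to 341 CPM in PLEA and from 285 to 331 CPM in saline, and Pgam1 from 227 to 269 CPM in PLEA and from 204 to 263 CPM in saline. Pkm, which makes pyruvate, ranged from 898 to 1027 CPM in PLEA and from 820 to 1103 CPM in saline (log2 fold change -0.0028, SE 0.15). For these genes and the other enzymes except Gapdh, Hk2 and Pfkl the standard error of the log2 fold change was between 0.12 and 0.17. Over the 10 paralog ratios compared here, which include that of Egln3 to Egln1 at 0.231, 0.126 and 0.157 in PLEA, against 0.177, 0.192 and 0.210 in saline, the groups overlapped in every case, and the smallest two-sided exact permutation p was 0.3 (adjusted p = 0.9 over the 10). Without PLEA replicate 1 the groups did not overlap for 4 of the 10. Smaller groups separate more readily, and no share over other ratios was computed, so that count is not read as a difference.

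Gapdh, glyceraldehyde-3-phosphate dehydrogenase and a common reference gene for expression assays, was the outlying enzyme. It had 166, 191 and 193 counts in PLEA, against 168, 169 and 1286 counts in saline, so 5 libraries were nearly level and saline replicate 3 alone was high. The log2 fold change of -1.66 (SE 0.75, edgeR adjusted p = 0.818) rested on that library and was 0.071 without it. Gapdh has many near-identical copies. Among the annotated transcripts, 89 pseudogenes matched it at an identity of at least 95% over at least 200 bases, 23 of them at 99% or more, and together they held 82.3% of the counts of Gapdh and its copies. One of them, Gm13394, named here after its values were seen, had 82, 4963 and 82 counts in PLEA, against 64, 92 and 96 counts in saline. The other 88 copies summed to 722, 763 and 830 counts in PLEA, against 704, 906 and 778 counts in saline.

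**Figure D5:**
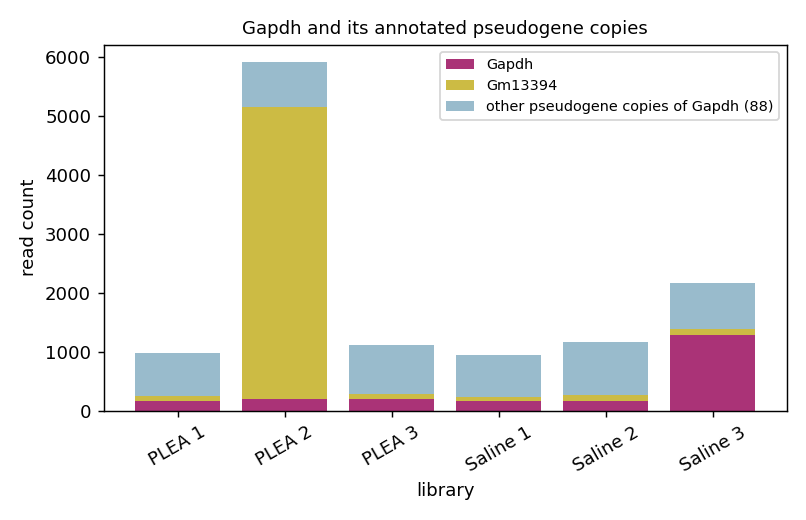
Read counts (y axis) of Gapdh, of the copy Gm13394 and of the other 88 pseudogene copies in each library, stacked. Gm13394 accounts for the height of PLEA replicate 2 and Gapdh itself for that of saline replicate 3.

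Gapdh and its copies together had 970, 5917 and 1105 counts in PLEA, against 936, 1167 and 2160 counts in saline, and on these sums the log2 fold change was 0.83 in place of -1.66. How reads that match several copies were counted is not given in the sources used here, so neither the level of Gapdh nor its direction between groups can be read from these counts. A smaller case of the same kind was the Gpi1 pseudogene Gpi-ps, also named after its values were seen, with 3, 300 and 5 counts in PLEA, against 4, 6 and 6 counts in saline, beside 7751 to 9813 counts for Gpi1. Pseudogene copies matched 12 of the 35 genes in all and held 4.57% of the joint counts for Bnip3l and 1.12% or less for each of the others except Gapdh. Eno1 also has a near-identical coding copy, Eno1b, with 99 to 164 counts per library against 7614 to 10066 for Eno1.

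The wider pathway also gave no call. Of 27 tested genes among 28 further hypoxia genes, 14 were positive and 13 negative, and edgeR called 0 in each direction. An unadjusted p under 0.05 was reached by Hif3a and Kdm4b, both with positive values, or 7.41% of the 27 against 5.86% of all genes tested. The groups overlapped for all 27. Hif3a, a HIF alpha relative that can act as an inhibitor, was at 5.37, 40.2 and 27.6 CPM in PLEA, against 5.28, 8.44 and 10.3 CPM in saline (log2 fold change 1.61, SE 0.61, edgeR adjusted p = 0.818). PLEA replicates 2 and 3 were above all saline libraries and PLEA replicate 1 among the saline values. On the log2 scale the difference was 0.30 (SE 0.13) for the histone demethylase gene Kdm4b, -0.47 (SE 0.21) for the nuclear receptor gene Rora and -0.45 (SE 0.22) for the collagen lysyl hydroxylase gene Plod2, each with edgeR adjusted p = 0.818. Vegfa, the angiogenic HIF target, chosen after its values were seen, was at 65.4, 39.9 and 50.0 CPM in PLEA, against 59.7, 71.3 and 61.6 CPM in saline.

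Of 29 tested genes among 30 further glycolysis, glycogen and pyruvate genes, 10 were positive and 19 negative, with a median log2 fold change of -0.070. None passed in edgeR, and an unadjusted p under 0.05 was reached by Aldoc and Pygb only, or 6.9% of the 29 against 5.86% of all genes tested. The groups did not overlap for 5 of the 29 (17.2%), all lower in PLEA (Aldoc, Pygb, Pfkfb4, Bpgm and Gbe1), against 5.54% of all genes tested lower and 10.7% in either direction. Aldoc, the aldolase of astrocytes, was at 435, 413 and 492 CPM in PLEA, against 709, 643 and 553 CPM in saline, every PLEA library below every saline library (log2 fold change -0.51, SE 0.14, edgeR adjusted p = 0.818). Pygb, brain glycogen phosphorylase, was at 144, 152 and 150 CPM in PLEA, against 187, 196 and 170 CPM in saline (log2 fold change -0.31, SE 0.11, edgeR adjusted p = 0.818). On the log2 scale the difference was -0.34 for Pfkfb4 (SE 0.16, edgeR adjusted p = 0.818) and -0.66 for Pfkfb1 (SE 0.38, edgeR adjusted p = 0.824). Pfkfb1 was scarce, at 0.61 to 0.92 CPM in PLEA and 0.86 to 1.47 CPM in saline, and its groups overlapped. Astrocyte markers, with 8 of 8 tested and none at 0, summed to 3671, 2963 and 3189 CPM in PLEA, against 4696, 3238 and 3644 CPM in saline, and 7 of the 8 had negative fold changes; their part in the Aldoc and Pygb values was not tested.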

How the data were processed

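Values are the raw gene counts of 6 libraries (3 PLEA, 3 saline, by title) in 1 deposited table, which also holds gene length in bases. Per the labels' protocols, an RNeasy kit and a SMARTer mRNA kit were used. GRCm38 and mm10 are named, per the submitters' processing notes, but 1 of 35 listed genes had its GENCODE M21 coordinates, so no gene coordinates are printed. For the aligner, the counter and any strand setting, no name was found in the labels or the table.

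The quasi-likelihood test of edgeR 4.0.16 (R 4.3.3) was fitted on group alone after filterByExpr and TMM scaling. P-values were adjusted by Benjamini-Hochberg over 17584 genes, with 0.05 as threshold. Standard errors come from dividing a log2 fold change by the root of its F. CPM uses the TMM-scaled library total, and TPM the deposited gene length. Paralog ratios divide counts by length within a library, so their levels depend on the deposited lengths, while their log2 differences between groups do not. Copies were searched with BLASTN 2.17.0 among GENCODE M21 transcripts. Marker sums are of CPM.

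Values in every library are given for the 10 genes of smallest p, the 6 of widest range and those in a ratio. Beyond the 35, up to 4 genes a list were taken by p, some of them without their library values. The listed genes and all lists were chosen with earlier results of these data known. Chi-square per degree of freedom between libraries of a group was 13.9 to 53.2, so no pair agreed within sampling noise. Alternatives were DESeq2 1.42.0, limma 3.58.1 voom, RLE factors, other filters, a replicate block, summing each gene with its pseudogene copies, and leaving out each library. The test was run on simulated data first.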

Additional observations from a re-analysis of the deposited data

How the results depend on the processing

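No listed gene passed the adjusted threshold under any alternative run, and the median log2 fold change of the listed genes lay between -0.079 (without PLEA replicate 1) and 0.071 (without saline replicate 3). Over all genes, the calls were 3 higher with 36 lower in DESeq2, and 7 higher with 31 lower where edgeR had no expression filter, against 0 and 0; leaving out 1 library gave 0 higher in each case and 0 to 1 lower. The cause was not tested. Same-numbered libraries did not all deviate together (correlations 0.37, 0.17 and -0.018 for replicates 1, 2 and 3). The value for replicates 1 was the highest of any PLEA and saline pair. With so few libraries these correlations cannot decide whether a number marks a shared batch or a pair. With the replicate block 0 genes passed, and 0 listed genes had an unadjusted p under 0.05. Of all genes tested 7.77% did, against 5.86% without the block. The median with the block was -0.014, and Pkm turned to 0.0052 and P4ha1 to -0.011. Not every library correlated best with its own number. With limma voom Pkm turned to 0.0053 and P4ha1 to -0.014. Summing pseudogene copies turned Gapdh to 0.83, by the counts of Gm13394. The summed enzyme level had a log2 ratio of 0.13 in TPM and 0.067 as a percent of raw counts, and ranged from 0.026 to 0.23 when 1 library was left out. Ratios whose groups did not overlap numbered 0 to 4 when 1 library was left out, against 0, with 4 without PLEA replicate 1 and 1 without saline replicate 2. Groups with a library left out separate more readily, and these counts have no background share beside them. The log2 fold change took both signs when 1 library was left out for 25 of 34 genes, ranging from -0.011 to 0.25 for Aldoa, -0.098 to 0.091 for Pkm, -0.016 to 0.19 for Eno2, -0.024 to 0.14 for Gpi1, -0.23 to 0.033 for Eno1, -0.038 to 0.090 for Hk1, -0.13 to 0.083 for Tpi1, -0.0065 to 0.13 for Pfkm, -0.11 to 0.11 for Pfkp, -0.075 to 0.073 for Ldhb, -0.14 to 0.060 for Pgk1, -0.030 to 0.14 for Pgam1, -0.071 to 0.35 for Ldha, -0.30 to 0.15 for Pfkl, -0.13 to 0.089 for Egln1, -0.13 to 0.045 for Arnt, -0.16 to 0.11 for Pfkfb3, -0.24 to 0.21 for P4ha1, -0.16 to 0.21 for Vhl, -2.09 to 0.071 for Gapdh, -0.51 to 0.0019 for Egln3, -0.84 to 0.18 for Hk2, -0.46 to 0.019 for Slc16a3, -0.079 to 0.22 for Ankrd37 and -0.51 to 0.11 for Adm. The other 9 kept their sign, at -0.63 to -0.29 for Ndrg1, 0.27 to 0.40 for P4ha2, -0.46 to -0.22 for Bnip3l, 0.17 to 0.40 for Slc2a3, 0.14 to 0.50 for Ddit4, -0.42 to -0.076 for Pdk1, -0.13 to -0.036 for Bnip3, -0.17 to -0.025 for Epas1 and -0.18 to -0.018 for Hif1a. Depth limits the scarce genes, since Adm and Car9 had under 50 counts in every library.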
